A study of Homo sapiens with 66 samples.

Results

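Glucose enters cells through glucose transporters and is committed to glycolysis by phosphorylation. The genes described here are 8 genes of these upper steps. SLC2A1 and SLC2A3 encode the transporters GLUT1 and GLUT3, HK1 and HK2 encode hexokinases, which phosphorylate glucose, GPI encodes glucose-6-phosphate isomerase, and PFKL encodes the liver-type subunit of phosphofructokinase. PFKFB3 and PFKFB4 encode bifunctional enzymes that make and remove fructose-2,6-bisphosphate, the strongest activator of phosphofructokinase. ChIP-seq was used to map where subunits of the hypoxia-inducible factor (HIF) bind at these genes. A peak was given to one of the 8 genes when its centre lay in the gene body or within 50 kb of an annotated transcription start site (TSS) of the gene, with no other protein-coding gene nearer. By this rule 388 of the 131425 peaks in 50 peak lists belonged to the 8 genes.

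HIF is a dimer of an oxygen-regulated α subunit, HIF-1α or HIF-2α, and the constitutive partner HIF-1β. When oxygen is short the α subunits escape hydroxylation and destruction, and the dimer binds hypoxia response elements (HREs) whose core reads ACGTG or GCGTG. Induction of glucose uptake and glycolysis is among the oldest known responses to HIF, and HIF-1 is the isoform usually tied to the glycolytic genes.

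HIF-1α, HIF-2α and HIF-1β were precipitated in 3 human cell lines, with 2 libraries in each of 25 groups. HKC-8, labelled HKC8, is a kidney proximal tubule line. It was exposed for 6 h to 3% oxygen, or to 0.5% oxygen with an exposure of 6 h, 16 h or 48 h (24 libraries, the severity and duration experiment). A separate knockout experiment (14 libraries, 16 h at 0.5% oxygen) used HKC-8 of wild type (WT) and of 2 mutant kinds, in which CRISPR-Cas9 had put a frameshift in HIF-1α (HIF-1α KO) or in HIF-2α (HIF-2α KO). Each knockout was a single clone and had no libraries of the deleted isoform. RCC4, a kidney cancer line without functional VHL that therefore accumulates HIF-α in normoxia, was kept in normoxia (6 libraries), and HepG2, a hepatocellular cancer line, in 0.5% oxygen for 16 h (6 libraries). The study describes the libraries of a group as independent ChIP-seq experiments. The labels do not say whether they came from separate cultures, and p-values measure the spread between these libraries.

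The lists held 237 to 8279 peaks each, and read depth is unknown. Binding too weak to be called cannot be told from no binding. The list with 237 peaks was HIF-2α replicate 2 at 48 h. In HepG2 the libraries did not group by their labels. The library labelled HIF-1α replicate 2 shared 2596 peaks with the library labelled HIF-2α replicate 1 (50.05% of the shorter list) and 1211 with the other library labelled HIF-1α (34.9%), while both libraries labelled HIF-2α shared 1163 (25.9%). The main results that set HIF-1α against HIF-2α are therefore given with and without HepG2, and other values include HepG2 unless stated.

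Overlapping peaks of the 50 lists were merged into sites, and the 8 genes held 41. Of these, 20 were called in 1 library and 12 in at least 10 libraries, against 71.0% and 5.27% of all 50316 sites of the series. These 12 sites are named by gene and by distance from the TSS of the gene's MANE Select transcript (the agreed reference transcript), with negative values upstream. Of the 8 loci, 6 were called in at least 25 of the 50 libraries, against 459 of 20163 protein-coding genes (2.28%). The order was SLC2A3 with 50 libraries, GPI with 46, PFKFB3 with 44, SLC2A1 with 43, HK2 with 38, PFKFB4 with 37, PFKL with 22 and HK1 with 10.

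The sequences at 8 of the 12 sites are shown because the comparisons of isoforms, knockouts and cell lines turn on them. Each is the plus strand of GRCh37 from 60 bp before to 60 bp after the median peak centre, and capitals mark HRE cores, ACGTG or GCGTG on either strand (CACGT or CACGC when read on the plus strand).
HK2 -0.2 kb: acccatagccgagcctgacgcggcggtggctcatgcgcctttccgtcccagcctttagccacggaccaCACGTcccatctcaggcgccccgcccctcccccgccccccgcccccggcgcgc
PFKFB3 -1.3 kb: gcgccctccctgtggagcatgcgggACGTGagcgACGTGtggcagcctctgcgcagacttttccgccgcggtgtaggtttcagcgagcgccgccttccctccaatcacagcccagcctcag
PFKFB4 -0.5 kb: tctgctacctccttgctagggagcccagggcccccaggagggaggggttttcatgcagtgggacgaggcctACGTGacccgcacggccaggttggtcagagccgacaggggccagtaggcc
GPI -5.8 kb: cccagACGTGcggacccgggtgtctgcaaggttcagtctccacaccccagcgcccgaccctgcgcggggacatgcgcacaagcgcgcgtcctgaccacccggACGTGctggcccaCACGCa
SLC2A1 +0.5 kb: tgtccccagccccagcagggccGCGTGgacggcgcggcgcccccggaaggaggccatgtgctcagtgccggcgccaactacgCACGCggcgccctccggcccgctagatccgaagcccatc
SLC2A1 +17.4 kb: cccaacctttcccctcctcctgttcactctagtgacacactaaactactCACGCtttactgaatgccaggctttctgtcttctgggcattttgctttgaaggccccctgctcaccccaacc
SLC2A3 -34.7 kb: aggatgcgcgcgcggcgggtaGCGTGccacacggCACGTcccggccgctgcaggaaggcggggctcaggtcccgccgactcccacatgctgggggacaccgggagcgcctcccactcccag
HK2 -17.4 kb: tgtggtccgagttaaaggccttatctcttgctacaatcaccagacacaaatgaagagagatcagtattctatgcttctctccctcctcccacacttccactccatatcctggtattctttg

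The site HK2 -0.2 kb (chr2:75059852-75063433) lies just upstream of the HK2 start and inside the divergent noncoding gene HK2-DT. PFKFB3 -1.3 kb (chr10:6242298-6247331), PFKFB4 -0.5 kb (chr3:48593251-48596758) and SLC2A1 +0.5 kb (chr1:43422657-43425428) are centred in introns near the main starts. GPI -5.8 kb (chr19:34849388-34851206) is upstream of the MANE start but close to another annotated start of GPI. PFKL +0.3 kb (chr21:45719049-45721591) and HK1 -0.3 kb (chr10:71077345-71080452) also lie in introns at a start. Away from starts, SLC2A1 +17.4 kb (chr1:43405567-43411231) is intronic, with another annotated start 1.82 kb away, and SLC2A1 -3.9 kb (chr1:43425707-43429845) lies upstream in SLC2A1-DT. SLC2A3 -34.7 kb (chr12:8122422-8124249) and SLC2A3 -24.8 kb (chr12:8112942-8114165) fall in an intron of long SLC2A3 transcripts, upstream of the MANE start. HK2 -17.4 kb (chr2:75042741-75044831) lies outside any annotated gene. Next to SLC2A3 lies its close copy SLC2A14, called in 7 libraries, and reads were kept only above a mapping quality limit.

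Of the 12 sites, 11 held an HRE core within 100 bp of the centre, against 69.5% of the 2652 sites of the series called in at least 10 libraries. The exception was HK2 -17.4 kb. At 8 of the 12 there were 2 or more cores, against 30.8% of all such sites. GPI -5.8 kb held 9 cores and HK1 -0.3 kb held 4, counting overlapping matches on opposite strands separately. Cores further than 60 bp from the centre fall outside the sequences above, which show 3 of the 9 at GPI. In PFKFB3 -1.3 kb both ACGTG cores lie a few bases apart. The AP-1 motif (TGACTCA or TGAGTCA, either strand, whose end letters can be shared with an HRE core) was found at none of the 12, against 18.1% of all such sites. Cores were more frequent at sites called more often. Of the 403 sites of the series in at least 25 libraries, 83.9% held a core and 44.2% held 2 or more. Of the 6 such sites of the 8 genes, 6 held a core and 5 held 2 or more. These counts describe letters in a window and were not tested.

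**Figure D1:**
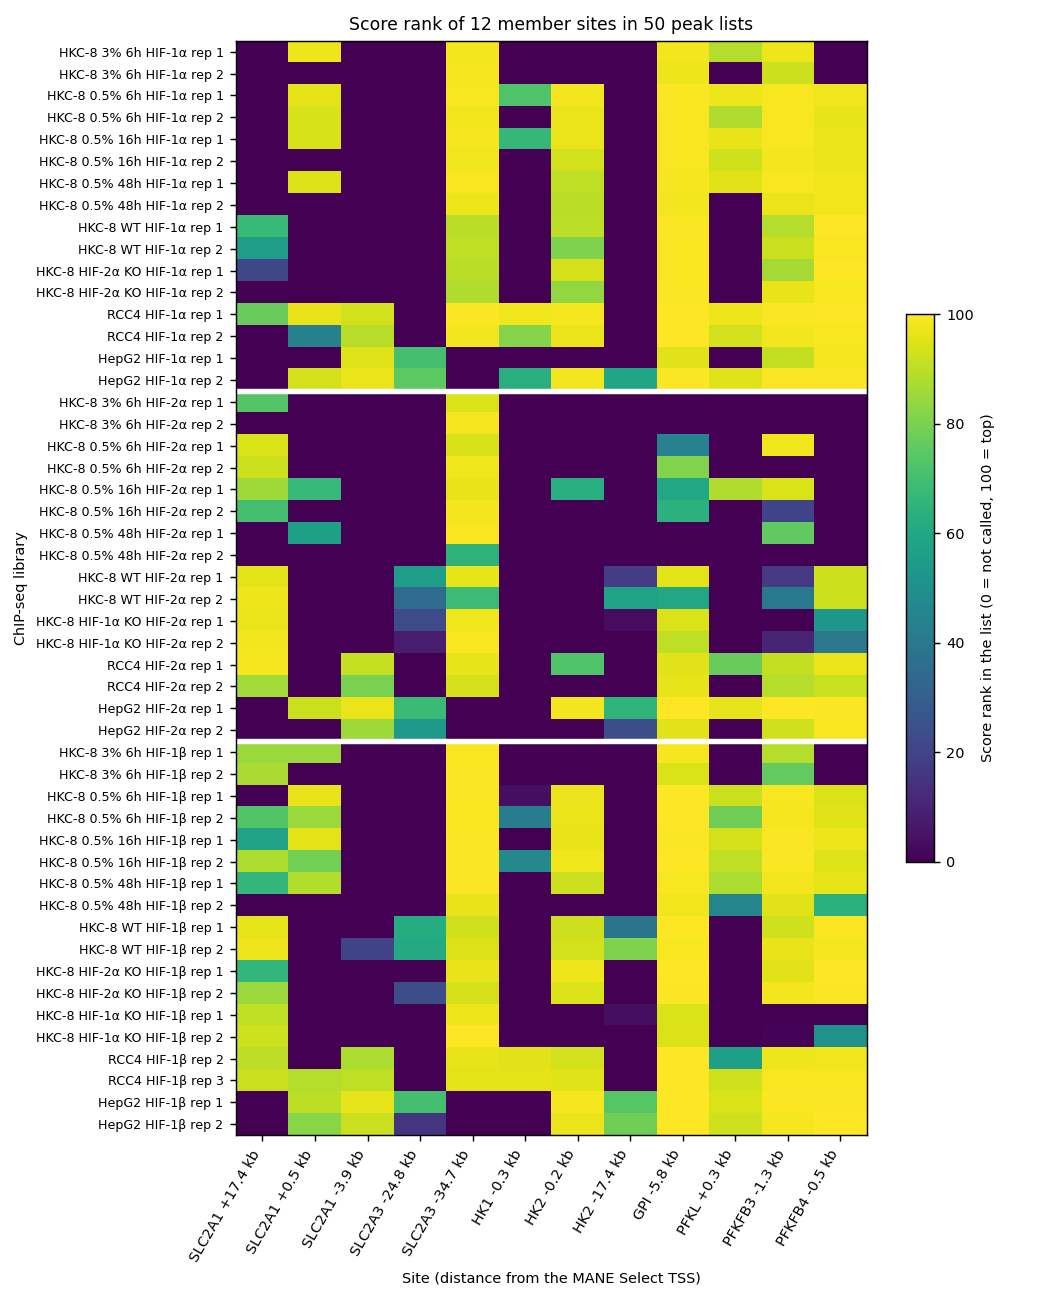
Score rank of the 12 sites (columns) in each of the 50 libraries (rows, grouped from top to bottom as HIF-1α, HIF-2α and HIF-1β and separated by white lines), from 0 (dark, not called) to 100 (yellow, best score of the list). GPI -5.8 kb and PFKFB3 -1.3 kb were called in all 16 HIF-1α libraries, and SLC2A1 +17.4 kb was called in 4 HIF-1α and 11 HIF-2α libraries.

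The first comparison asked whether the upper glycolytic genes were bound by HIF-1α and HIF-2α alike. Summed over the 8 genes, a peak was called in 102 of 128 pairs of a gene and a HIF-1α library, in 73 of 128 pairs with a HIF-2α library and in 115 of 144 with a HIF-1β library. Over all protein-coding genes such pairs made up 6.58% (HIF-1α), 7.92% (HIF-2α) and 8.18% (the β subunit) of all pairs. Each peak was also given a score rank, the percentage of peaks in its own list with a score at or below its own. A locus without a peak was set to 0. Score rank gives a place within a list and still depends on list length, since further weak peaks raise it. With HIF-2α, SLC2A3 ranked 65.0 at place 84 of 237 peaks (48 h, replicate 2). It ranked 94.0 at place 86 of 1417 peaks (0.5% oxygen, 6 h, replicate 1). The test used the 28 HIF-1α and HIF-2α libraries of the 7 conditions that had both, and permuted antibody labels within each condition.

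Among the regulatory enzymes, PFKFB3 and PFKFB4 ranked high with HIF-1α and varied widely with HIF-2α. For PFKFB3, score rank over the 14 HIF-1α libraries ran from 88.7 through a median of 98.3 to 99.6. Over the 14 HIF-2α libraries it ran from 0 through 57.9 to 99.7, and without HepG2 from 0 through 30.2 to 97.8. All HIF-1α libraries were high, whereas HIF-2α libraries were spread over the whole scale, and 4 of 14 had no peak. PFKFB4 ranked from 0 (median 98.0) to 99.8 with HIF-1α, the 2 libraries without a peak being those in 3% oxygen. With HIF-2α it was called in 6 of 14 libraries, with a highest rank of 99.6 (4 of 12 and 97.1 without HepG2). All 8 HIF-2α libraries of the severity and duration experiment lacked a PFKFB4 peak, and the 6 with one were WT, RCC4 and HepG2.

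Among the enzymes of the pathway itself, GPI ranked from 95.7 (median 99.1) to 99.9 with HIF-1α. With HIF-2α GPI ranked from 0 (median 61.7) to 99.8, and without HepG2 from 0 (median 59.5) to 96.1. In RCC4 it was the peak ranked 3 of 2120 in HIF-1α replicate 2. HK2 was called in 12 of 14 HIF-1α libraries with a median rank of 91.7 and in 7 of 14 HIF-2α libraries with a median of 9.2. Without HepG2, HK2 was called in 10 of 12 and 5 of 12 libraries, with medians of 91.7 and 0. PFKL was called in 9 of 14 HIF-1α libraries (median rank 90.8) and in 3 of 14 HIF-2α libraries. HK1 was called in 5 HIF-1α libraries, with ranks from 62.5 to 97.9, and in no HIF-2α library.

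At the transporters the values of both isoforms lay closer together. SLC2A3 had a peak in every library of both isoforms, with ranks of 89.6 to 99.4 (median 98.1) for HIF-1α and 65.0 to 99.1 (median 95.8) for HIF-2α, so the isoforms overlapped. The 65.0 came from the list of 237 peaks. For SLC2A1 as a whole locus, 11 of the 14 libraries with HIF-1α had a peak (median rank 93.8), as had 12 of the 14 with HIF-2α (median rank 86.9).

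**Figure D2:**
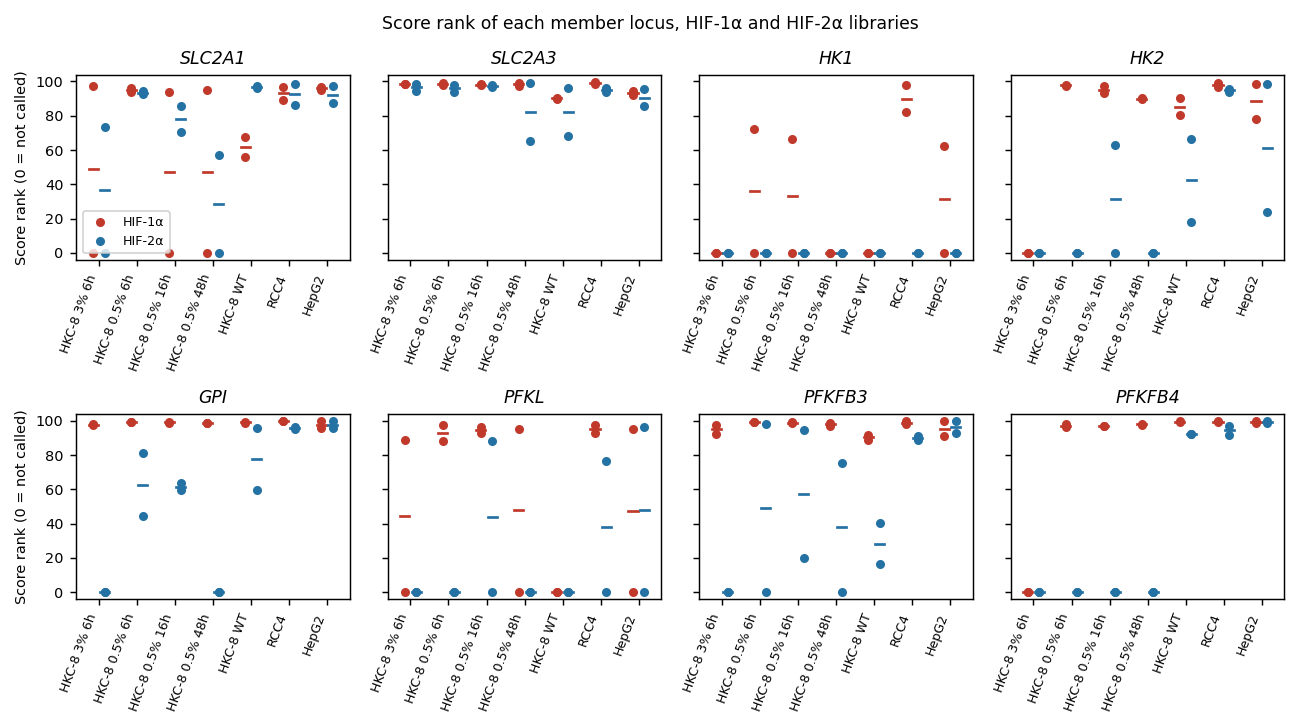
Score rank (0 = not called) of each of the 8 loci in HIF-1α (red) and HIF-2α (blue) libraries of the 7 conditions, with points for libraries and short lines for the mean of 2. For GPI and PFKFB3 the red points lie above both blue points in every condition but HepG2, whereas for SLC2A3 all points lie between 65.0 and 99.4.

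By calls alone, the difference (HIF-1α minus HIF-2α, mean over conditions in percentage points of libraries called) was 42.9 for PFKFB4 and PFKL, 35.7 for HK1 and HK2, 28.6 for GPI and PFKFB3, 0 for SLC2A3 and -7.14 for SLC2A1. In the exact permutation test (two-sided, 279936 arrangements) the unadjusted p was 0.00926 for PFKFB4, 0.0278 for HK2, 0.0417 for HK1 and 0.0451 for PFKL, and 0.0556 or more for the other 4. Thus 4 of the 8 had an unadjusted p below 0.05 with HIF-1α higher, against 77 of 10842 loci tested (0.71%). That share is low in part because loci called in very few libraries cannot reach such a p. Among the 1611 loci with a peak in at least 7 of the 28 libraries, which leave out HK1, 187 had one in either direction. After Benjamini-Hochberg adjustment 0 of 10842 loci (0%) passed 0.05, with 139 more at an unadjusted p below that value in the other direction, HIF-2α higher, and the adjusted p of every one of the 8 was 1. The smallest possible p of this exact permutation test is 7.14e-06, too large for 1 locus alone to pass over 10842 loci. A count of 0 therefore does not show that the isoforms were alike. The sign for HK2 turned (-7.14) when noncoding genes could also claim peaks, because HK2-DT then took the promoter peaks. Under the same rule the difference was 0 for GPI, 7.14 for PFKFB3 and -14.3 for SLC2A3, whose lead peaks also went to noncoding genes, and was unaltered for SLC2A1, HK1, PFKL and PFKFB4. The sign for SLC2A1 turned (7.14) when only scores of at least 100 counted.

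With score rank in place of the call, again 0 loci (0%) passed (484 unadjusted). The nearest of the 8 were GPI, with a difference of 42.3 rank points (exact permutation, adjusted p 0.0536), PFKFB3 with 45.2 (0.0553) and PFKFB4 with 43.4 (0.0615). Without HepG2, a setting chosen after the data were seen, 22 of 9206 loci passed with HIF-1α higher (0.239%) and 4 of the 8 genes were among them. Loci called in very few libraries could not pass, which lowers that share. Mean score rank was then 98.9 with HIF-1α and 49.6 with HIF-2α for GPI (exact permutation, adjusted p 0.0197), 96.6 and 43.7 for PFKFB3 (0.0197), 81.8 and 31.1 for PFKFB4 (0.0464), and 77.7 and 28.1 for HK2 (0.0464), each over 12 libraries of each isoform. PFKL, at 62.5 and 13.7, had an adjusted p of 0.142. GPI and PFKFB3 were at the smallest p that this setting can give (exact permutation, 4.29e-05). When the 48 h condition with its list of 237 peaks was left out as well, 0 loci passed, and GPI and PFKFB3 had an adjusted p of 0.0512 at the smallest p that the remaining arrangements can give. Over all settings the adjusted p ran from 0.0197 to 1 for GPI and PFKFB3 and from 0.0464 to 1 for PFKFB4 and HK2.

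Lower glycolysis and other isoforms of the upper steps were set beside the 8 genes. Of 10 lower glycolysis genes, 6 were called in at least 25 libraries, namely ALDOA (49) and ENO1 (49), GAPDH (48), PKM (47), PGK1 (42) and ENO2 (27), which encode aldolase, enolases, glyceraldehyde-3-phosphate dehydrogenase, pyruvate kinase and phosphoglycerate kinase. Of 19 other transporters, hexokinases and phosphofructokinases, 1 was, PFKP (39), which encodes the platelet-type phosphofructokinase subunit, and 9 had no peak in any library. The median number of libraries was 40.5 for the 8 genes, 34.5 for lower glycolysis, 1 for the other isoforms and 1 for all protein-coding genes. Without HepG2, the median difference in score rank was 49.1 for the 8 genes, 10.8 for the 9 lower glycolysis genes tested, -3.09 for the 8 other isoforms tested and 0.29 for all loci. In that setting GAPDH passed with a difference of 28.4 (exact permutation, adjusted p 0.0197) and PGK1 with 56.3 (adjusted p 0.0338), and PFKP did not (6.92, adjusted p 1).

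SLC2A1 and HK2, with 9 and 8 sites, were next taken apart by site. SLC2A3 held 15 sites, of which 11 were called in 1 library. Its lead site SLC2A3 -34.7 kb was called in 14 libraries of each isoform, and SLC2A3 -24.8 kb in 2 HIF-1α and 6 HIF-2α libraries. A site at its MANE start, in 6 libraries and so not among the 12, was called in 1 and 3. At SLC2A1 +0.5 kb, the promoter, a peak was called in 8 of 16 HIF-1α libraries and 3 of 16 HIF-2α libraries. At SLC2A1 +17.4 kb, the intron site whose sequence above holds a single core, it was called in 4 and 11. In HKC-8 at 0.5% for 6 h, the promoter ranked 96.0 and 93.9 with HIF-1α and was not called with HIF-2α, while the intron site ranked 94.3 and 92.4 with HIF-2α and was not called with HIF-1α. The isoforms thus lay at different sites of the same gene in that condition, but not in all. In WT cells HIF-1α was called in 2 of 2 libraries at the intron site and 0 of 2 at the promoter. At the promoter both HIF-1α libraries ranked above both HIF-2α libraries in 2 of 7 conditions. At the intron site both HIF-2α libraries ranked above both HIF-1α libraries in 4 of 7. The opposite order occurred in 0 conditions at either site. Over the 7 conditions the intron site differed by -42.5 rank points (mean 14.3 with HIF-1α, 56.8 with HIF-2α, unadjusted exact permutation p 0.000772, adjusted p 0.324 over 39502 sites), and without HepG2 by -49.6 (adjusted p 0.174). The promoter differed by 35.3 (50.7 and 15.4, unadjusted exact permutation p 0.0410, adjusted p 1). Without HepG2 the promoter differed by 41.0 (unadjusted exact permutation p 0.0231) and did not pass adjustment either. SLC2A1 -3.9 kb was called in 4 libraries of each isoform.

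HK2 showed a like arrangement in counts. The promoter site HK2 -0.2 kb was called in 13 HIF-1α and 3 HIF-2α libraries, and HK2 -17.4 kb, without an HRE core, in 1 and 5. HK2 +31.6 kb, an intron site in 9 libraries and so not among the 12, was also called in 1 and 5. In RCC4 the HK2 locus ranked 94.1 and 95.3 with HIF-2α, from a site other than these 2 of the 12. There HK2 -17.4 kb had no peak, and outside HepG2 the promoter ranked at most 72.3 with HIF-2α. The promoter difference of 56.9 rank points (73.6 and 16.7) had an unadjusted exact permutation p of 0.00111 and an adjusted p of 0.401 over the 39502 sites. Without HepG2 it was 66.4 (exact permutation, adjusted p 0.113). In WT cells HIF-1α ranked 90.1 and 80.5 at the promoter, where HIF-2α had no peak, and HIF-2α ranked 18.3 and 57.7 at HK2 -17.4 kb, where HIF-1α had none. No site passed adjustment in the test over sites, by calls (365 unadjusted) or by score rank (640 unadjusted). The smallest possible p of this exact permutation test, 7.14e-06, is too large for 1 site alone to pass over 39502 sites.

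The knockout experiment asked whether binding moved when the other isoform was missing. With 2 libraries against 2, the smallest exact p is 0.33, so the values are given without a test. HIF-1β, which reads both dimers, ranked 92.4 and 93.1 at HK2 -0.2 kb in WT cells, 97.4 and 94.6 in HIF-2α KO cells, and was not called in either HIF-1α KO library. At PFKFB3 -1.3 kb it ranked 92.8 and 96.5 in WT, 95.5 and 98.2 in HIF-2α KO, and 0 and 1.0 in HIF-1α KO cells. At PFKFB4 -0.5 kb the ranks were 99.6 and 98.7, 99.8 and 99.3, and 0 and 51.1. HIF-1β at these 3 sites was thus low or absent only in the HIF-1α KO libraries among these groups.

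At GPI -5.8 kb HIF-1β was still called in HIF-1α KO cells, at 94.3 and 94.8 against 99.8 and 99.0 in WT cells, and HIF-2α itself ranked 94.7 and 90.4 there. SLC2A3 -34.7 kb gave the opposite order, with HIF-1β at 97.5 and 100.0 in HIF-1α KO cells, 92.7 and 94.6 in WT cells and 96.8 and 93.6 in HIF-2α KO cells. In HIF-1α KO replicate 2 it was the peak ranked 2 of 5786. At SLC2A1 +17.4 kb HIF-1β ranked 96.3 and 97.6 in WT, 90.4 and 92.9 in HIF-1α KO and 66.1 and 85.1 in HIF-2α KO cells.

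Of the 6 loci with HIF-1β in both WT libraries, 4 (HK2, GPI, PFKFB3 and PFKFB4) had both HIF-2α KO ranks above both HIF-1α KO ranks, against 14.1% of the 2810 such loci. The other 2 (SLC2A1 and SLC2A3) had them below, against 38.2%. At the locus as a whole HK2 kept a HIF-1β peak in HIF-1α KO cells, at 10.6 and 73.2, from sites other than the promoter. HIF-1β lists were 3387 and 5786 peaks long in HIF-1α KO and 2550 and 2085 in HIF-2α KO cells.

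The remaining isoform was then compared with WT. In HIF-2α KO cells HIF-1α ranked 93.6 and 83.9 at HK2 -0.2 kb (90.1 and 80.5 in WT), 86.4 and 96.5 at PFKFB3 -1.3 kb (88.7 and 91.9) and 99.8 and 99.0 at PFKFB4 -0.5 kb (99.8 and 99.0). At SLC2A3 -34.7 kb it ranked 89.5 and 87.9 (89.6 and 90.6 in WT). Of the 6 loci with HIF-1α in both WT libraries, 2 (SLC2A1 and SLC2A3) had both HIF-2α KO ranks below both WT ranks, against 54.7% of 806 such loci, and 0 had them above, against 5.58%. In HIF-1α KO cells, as in WT cells, HIF-2α had no peak at HK2 -0.2 kb. In HIF-1α KO cells it ranked 0 and 10.4 at PFKFB3 -1.3 kb (16.5 and 40.3 in WT) and 52.7 and 39.6 at PFKFB4 -0.5 kb (92.5 and 92.5). At SLC2A3 -34.7 kb it ranked 97.9 and 98.9 (96.1 and 68.4 in WT), and at GPI -5.8 kb 94.7 and 90.4 (95.8 and 59.7). Of the 6 loci with HIF-2α in both WT libraries, 2 (PFKFB3 and PFKFB4) had both HIF-1α KO ranks below both WT ranks, against 33.2% of 1997 such loci, and 1 (SLC2A3) had them above, against 21.5%. At SLC2A1 +17.4 kb HIF-2α ranked 97.1 and 98.1 in HIF-1α KO and 96.0 and 97.6 in WT cells, while HIF-1α ranked 21.1 and 0 in HIF-2α KO and 67.6 and 56.1 in WT cells. The study itself reports slightly lower HIF-1α protein in the HIF-2α KO cells, possibly from clonal variation, and slightly less HIF-1α binding. HIF-1α lists held 1271 and 915 peaks in HIF-2α KO and 1913 and 1535 in WT cells. The part of either in these ranks was not tested.

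**Figure D3:**
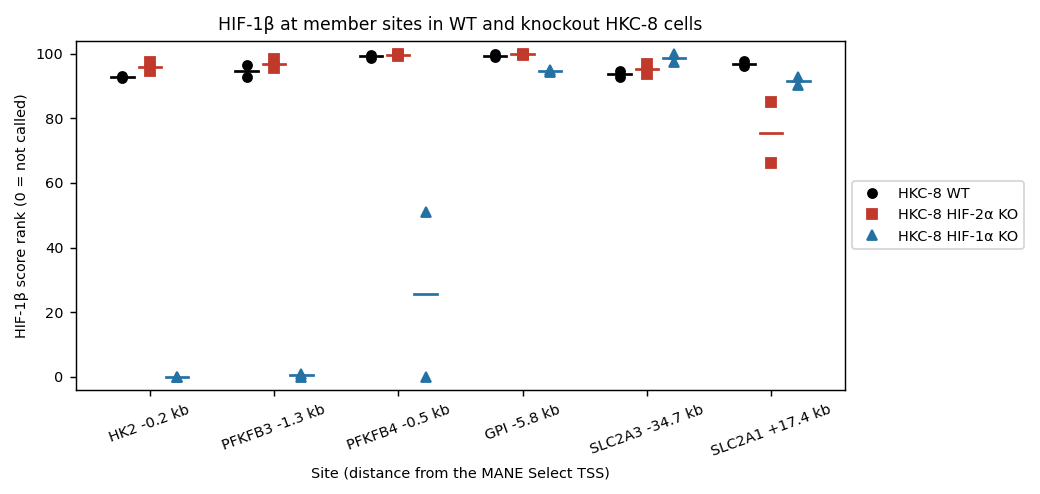
HIF-1β score rank (0 = not called) at 6 sites in WT, HIF-2α KO and HIF-1α KO HKC-8 cells, with points for the 2 libraries of each and short lines for their mean. At HK2 -0.2 kb and PFKFB3 -1.3 kb the HIF-1α KO libraries sit at 0 to 1.0 and all others above 92.

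HIF-1β was also called at most places where an α subunit was. Over the 12 sites and 9 conditions there were 57 cases in which a HIF-α isoform was called in both replicates, and HIF-1β was called in at least 1 replicate in 56. The exception was at SLC2A3 -24.8 kb. The share was 89.2% of 7343 such cases over all 2654 sites called in at least 10 libraries, a minimum that itself counts HIF-1β libraries.

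The severity and duration experiment asked whether oxygen level or time altered binding. In 3% oxygen HK2, HK1 and PFKFB4 were called in 0 of 6 libraries, against 4, 3 and 4 of 6 in 0.5% oxygen at 6 h. PFKL was called in 1 against 4, while GPI (4 against 6), PFKFB3 (4 against 5), SLC2A1 (4 against 6) and SLC2A3 (6 and 6) kept a peak in most libraries. The HK2 promoter ranked 98.1 and 97.2 with HIF-1α and 97.1 and 97.2 with HIF-1β at 0.5%, and the PFKFB4 site 98.0 and 96.1 with HIF-1α and 94.8 and 95.2 with HIF-1β. Both went from near the top of 4 lists to no peak in 4 lists. GPI with HIF-1α ranked 99.3 and 99.2 at 0.5% and 98.1 and 97.3 at 3%.

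Of the 7 loci called in all 4 HIF-1α and HIF-1β libraries at 0.5%, 2 (HK2 and PFKFB4) were called in none of the 4 at 3%, against 11.7% of the 111 such loci. The lists at 3% held 558 to 1223 peaks and those at 0.5% held 1271 to 1496, and the part of list length in these losses was not tested. The exact permutation test, with oxygen labels permuted within antibody, gave an unadjusted p of 0.0556 for HK2 and PFKFB4 and of 0.167 or more for the other 6. Its smallest possible p is 0.00926, and 0 of 4876 loci passed adjustment (9 unadjusted). By score rank GPI differed by -22.5 points (64.7 at 3%, 87.2 at 0.5%) at that smallest p, and PFKFB3 by -23.2 (59.1 and 82.3, exact permutation p 0.0278), both with an adjusted p of 1 (44 loci unadjusted). The test counts libraries of the 3 antibodies as separate, but HIF-1β reads the same dimers as the α subunits. Whether the antibodies of a condition shared chromatin is not in the labels, and if they did, these p-values are too small.

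Between 16 h and 6 h each of the 8 loci differed by at most 1 library of 6. At 48 h, SLC2A1 was called in 3 libraries against 6 at 6 h and HK1 in 0 against 3, while PFKFB3 (5 and 5), PFKFB4 (4 and 4) and SLC2A3 (6 and 6) were called as often. The 4 HIF-1α and HIF-1β libraries at 48 h ranked GPI between 97.9 and 99.2, and both HIF-2α libraries lacked it. By calls, the exact permutation p of the 8 loci was 0.25 or more at both times, apart from HK1 at 48 h (0.167), and 0 of 5072 loci at 16 h and 0 of 4833 at 48 h passed adjustment (6 and 4 unadjusted). By score rank at 48 h, GPI differed by -21.5 points (65.7 against 87.2, exact permutation p 0.00926) and SLC2A1 by -53.1 (40.0 against 93.1, p 0.0463), both with an adjusted p of 1, and 48 h includes the list of 237 peaks. These tests too counted the antibodies as separate, so the same limit applies to their p-values.

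**Figure D4:**
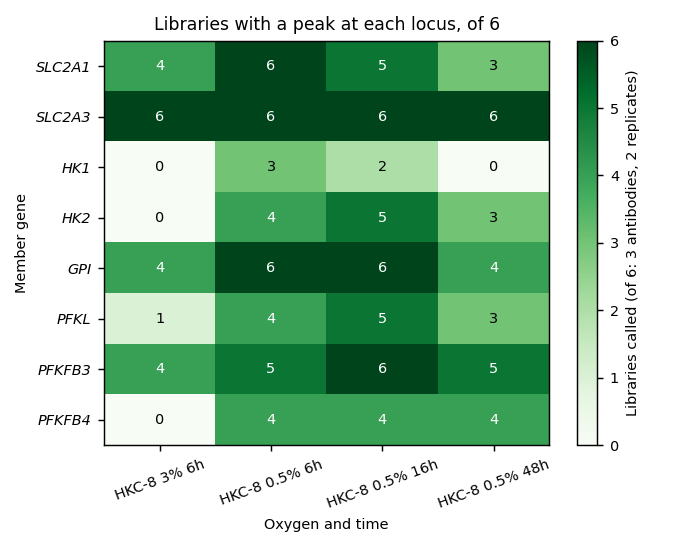
Number of HKC-8 libraries, of 6 in each condition (3 antibodies with 2 replicates), with a peak at each of the 8 loci. SLC2A3 was called in 6 of 6 in every condition, and HK1, HK2 and PFKFB4 in 0 of 6 in 3% oxygen.

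Cell lines were compared without a test, since line cannot be told apart from experiment and, in RCC4, from oxygen level. GPI, PFKFB3, PFKFB4, HK2, SLC2A1 and SLC2A3 had a peak in all 6 RCC4 and all 6 HepG2 libraries, but for the transporters and HK2 not always at the same sites. HK2 -17.4 kb was called in 0 of 6 RCC4 and 5 of 6 HepG2 libraries, and HK2 -0.2 kb in 5 and 4. SLC2A3 -34.7 kb was called in 24 of 24 and 14 of 14 HKC-8 libraries and 6 of 6 RCC4 libraries, and in 0 of 6 HepG2 libraries. SLC2A3 -24.8 kb was called in all 6 HepG2 libraries, with ranks from 15.3 to 74.9, in 7 of 14 libraries of the knockout experiment, and in none of the severity and duration experiment or RCC4. The SLC2A3 locus as a whole ranked 83.9 to 95.6 in HepG2, so its best peak there lay at neither of these sites.

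SLC2A1 -3.9 kb was called in 6 of 6 RCC4 libraries (ranks 79.7 to 93.3) and 6 of 6 HepG2 libraries (85.6 to 97.1), and in 1 of 38 HKC-8 libraries, at a rank of 20.6. SLC2A1 +17.4 kb was called in 24 of 38 HKC-8 and 5 of 6 RCC4 libraries, and in 0 of 6 HepG2 libraries. SLC2A1 +0.5 kb was called in 3 of 6 RCC4 and 4 of 6 HepG2 libraries. In HKC-8 it was called in 13 of 24 libraries of the severity and duration experiment and 0 of 14 of the knockout experiment. The counts of these 3 sites thus differed over the lines, and those of SLC2A1 +0.5 kb also between the HKC-8 experiments. HK1 was called in 4 of 6 RCC4 libraries, 2 with HIF-1α (97.9 and 82.0) and 2 with HIF-1β (95.4 and 95.9), and in 1 of 6 HepG2 libraries.

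**Figure D5:**
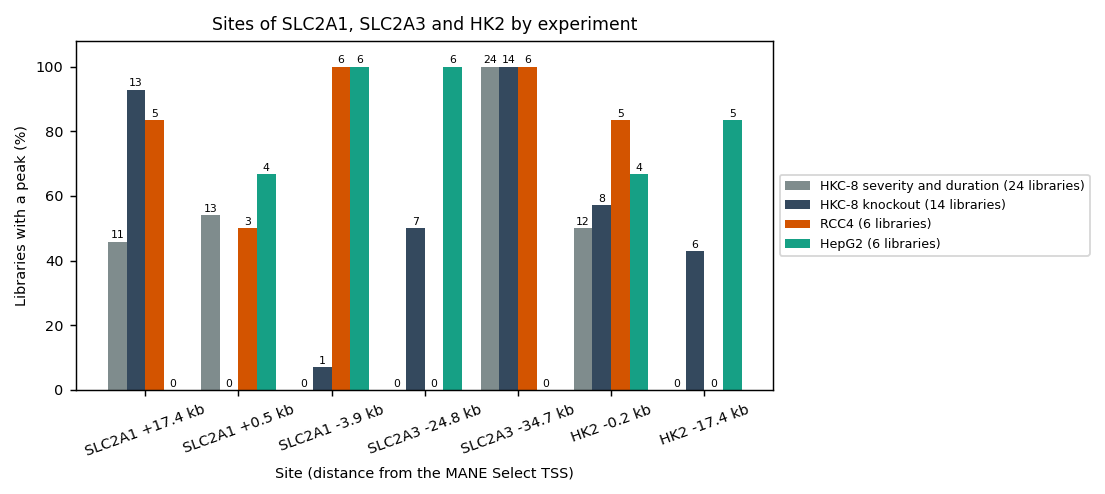
Percentage of libraries with a peak at 7 sites of SLC2A1, SLC2A3 and HK2 in the severity and duration experiment (24 libraries), the knockout experiment (14), RCC4 (6) and HepG2 (6), with the number of libraries above each bar. SLC2A3 -34.7 kb was called in every library outside HepG2, and SLC2A1 -3.9 kb in all RCC4 and HepG2 libraries and 1 HKC-8 library.

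At 3 promoters the HepG2 libraries split across their labels. HK2 -0.2 kb ranked 98.4 in HIF-1α replicate 2 and 98.3 in HIF-2α replicate 1, and was not called in HIF-1α replicate 1 or HIF-2α replicate 2. PFKL +0.3 kb (95.3 and 96.4) and SLC2A1 +0.5 kb (93.6 and 91.8) had peaks in the same pair of libraries and none in the other pair. SLC2A3 -24.8 kb did not split so, with ranks of 70.5 and 74.9 in the libraries labelled HIF-1α and 68.2 and 53.6 in those labelled HIF-2α.

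The same condition in HKC-8, 0.5% oxygen for 16 h, was present in both HKC-8 experiments. PFKL +0.3 kb was called in 5 of 6 libraries of that condition in the severity and duration experiment and in 0 of 6 WT libraries of the knockout experiment. SLC2A1 +0.5 kb was called in 4 and 0, and HK1 -0.3 kb in 2 and 0. The order was opposite at HK2 -17.4 kb and SLC2A3 -24.8 kb, each called in 0 and 4, while GPI, PFKFB3 and SLC2A3 -34.7 kb were called in 6 and 6. PFKFB4 -0.5 kb was called in 4 and 6. With HIF-2α it had a peak in 0 of 2 libraries of the severity and duration experiment and 2 of 2 WT libraries (mean rank 92.5). SLC2A1 +17.4 kb was also called in 4 and 6, HK2 -0.2 kb in 5 and 4, and SLC2A1 -3.9 kb in 0 and 1. Over all conditions, PFKL +0.3 kb and SLC2A1 +0.5 kb were each called in 13 of 24 libraries of the severity and duration experiment, HK1 -0.3 kb in 5 of 24, and all 3 in 0 of 14 of the knockout experiment. The lists were longer in the knockout experiment, at 915 to 8279 peaks against 237 to 1793. PFKL +0.3 kb, SLC2A1 +0.5 kb and HK1 -0.3 kb had the highest GC content of the 12 within 100 bp of the centre, at 82.1%, 78.1% and 77.6%, and HK2 -0.2 kb, called in 8 of those 14 libraries, had 76.6%. The part of GC content and of the experiment in these calls was not tested.

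The pattern over the 50 libraries was compared with that of all other loci, as a description in which list length and experiment are shared. The locus most like PFKFB3 was ENO1 (Pearson r 0.73 over 50 libraries). HK2 and PFKFB4 were both most like DENND1A (r 0.87 for each), PFKL was most like FAM210A (0.89), HK1 most like GTF2IRD2 (0.78) and SLC2A1 most like DNAJB12 (0.63).

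Sites also lay near the distance limit. Just inside 50 kb lay a site 48.0 kb from an HK2 start in 4 libraries and a site -49.8 kb from a start of SLC2A1 in 3. Just outside lay a site -55.5 kb from HK2 in 10 libraries and sites 51.4 and 55.5 kb from PFKFB3 in 2 and 9.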

How the data were processed

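Per the study's methods, the authors trimmed reads (TrimGalore 0.3.3), aligned them to GRCh37 (BWA 0.7.5a-r405), removed mapping qualities below 15 (SAMtools 0.1.19) and black-listed regions (BEDTools 2.17.0), marked duplicates (Picard 1.106) and called peaks with MACS in control mode, 1 list per library. The study also called peaks with T-PIC and filtered those found by both callers against random regions; the sources used here do not say that either step was applied to the deposited lists, nor give the MACS version. The deposited score was read as -10 log10 of the peak's p-value; the lowest was 50.0, a p of 1e-05. The lists give no depth, so score was used only to rank peaks within a list. Input samples (16) were not used here except through the authors' peak calling.

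Peaks were assigned with GENCODE 44 (GRCh37), using Python 3.11.15, pandas 2.3.3, numpy 2.4.6 and pysam 0.24.0; the competing genes were protein-coding, a choice of reading. Antibody, oxygen or time labels were permuted exactly within strata, two-sided, with Benjamini-Hochberg adjustment over all loci with a peak. The test was tried on simulated calls. Named were the 8 genes, their lead sites and sites in at least 10 libraries, pathway genes past an adjusted p of 0.05 or called in at least 25 libraries, and, for each gene called in 5 to 45 libraries, the most correlated other locus. Genes, lists and tests were chosen with earlier results of these data known. Alternatives were equal-length lists, a score of at least 100, score rank, other distance and gene rules, a minimum of 7 libraries, a replicate block, and leaving out HepG2 or a replicate.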

Additional observations from a re-analysis of the deposited data

Results flagged for a closer look

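At SLC2A3 -24.8 kb the order of the isoforms was opposite in 2 conditions. HIF-1α minus HIF-2α in score rank was -45.4 in WT HKC-8 cells, where HIF-1α had no peak in either library, and 11.8 in HepG2, where both libraries labelled HIF-1α ranked above both labelled HIF-2α. The difference between the conditions was not tested, and the HepG2 libraries did not group by their labels.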

How the results depend on the processing

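For HIF-1α against HIF-2α, 0 loci passed in every setting run except 1, score rank without HepG2, where 51 did (22 higher with HIF-1α, 29 with HIF-2α). In it 4 genes passed, with differences of 49.6 for HK2, 49.3 for GPI, 52.9 for PFKFB3 and 50.6 for PFKFB4. The direction turned for SLC2A1 with scores of at least 100 (7.14 percentage points) and for HK2 when all annotated genes competed (-7.14); neither passed before or after, and the cause was not tested for SLC2A1. The rule with all annotated genes left 182 of the 388 peaks, with single noncoding genes taking 59 from SLC2A3, 43 from PFKFB3, 40 from GPI and 34 from HK2. GPI then differed by 0, PFKFB3 by 7.14 and SLC2A3 by -14.3 percentage points. It left 25 sites, and locus calls were 48 (HIF-1α), 38 (HIF-2α) and 61 (the β subunit). Scores of at least 100 left 23 sites. With a replicate block, 0 loci passed (142 unadjusted). PFKFB4 then had an unadjusted exact permutation p of 0.0312, and HK1 (0.0625), HK2 (0.0625) and PFKL (0.0703) were no longer below 0.05. Replicate numbers are not said to mark a shared culture, and the correlation of replicate differences ran from -0.33 in HepG2 to 0.11 in RCC4, so the numbers were not taken as pairs. Leaving out replicate 1 or 2 left 1 library of each isoform per condition, too few arrangements for the test to decide. The call difference without replicate 1 and without replicate 2 was 42.9 and 42.9 percentage points for PFKFB4 and 28.6 and 28.6 for GPI. It was 42.9 and 14.3 for PFKFB3 and 42.9 and 28.6 for HK2. HK1 could not be tested among loci with a peak in at least 7 of 28 libraries. Score rank without HepG2, with or without 48 h, tests over sites and the block for oxygen and time were chosen after seeing the data. Depth cannot be read from the lists, so an absent peak sets no upper limit on binding.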
